A study of Mus musculus with 12 samples.

Results

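The transcripts of 10 genes of the Wnt pathway were followed through neuronal differentiation of P19 cells, a mouse embryonal carcinoma line whose cells become neurons in retinoic acid. The genes were Sfrp1, Sfrp2, Frzb, Dkk1, Lef1, Axin2, Fzd2, Fzd7, Wnt3a and Wnt8a, which encode secreted antagonists, receptors, ligands and targets of the pathway, and each was looked for by its symbol among nanopore direct RNA reads that passed the quality tag and were classed as mRNA. Together they held 1879 of 4274320 reads, 0.0440% of the total, and 9 of the 10 had at least 1 read among the 14042 genes detected. All 12 libraries came from wild-type P19 cells of 1 line. The groups were undifferentiated cells (D0), kept in DMEM with fetal bovine serum, and cells after 2, 4 and 6 days (D2, D4 and D6) in NDiff 227 medium with 500 nM retinoic acid, with 3 biological replicates per day. Retinoic acid, medium and time in culture therefore cannot be told apart in any comparison with D0. The 3 libraries of a day were sequenced together as barcoded pools, and each of the 13 sequencing runs held 1 day only by the barcode assignment of the table, so the run and the day cannot be told apart either. The names of all 3 D0 runs say undifferentiated or undifferentiating but also carry the mark D2, and those of 2 of the 4 D6 runs give no day, so the day was taken from the sample labels and the replicate names. D2 and D4 had no run dated in the same month as those of D0, whereas 2 of the 4 D6 runs did.

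Wnt ligands are secreted lipid-modified proteins that bind Frizzled receptors and LRP co-receptors, which stabilises β-catenin and switches on target genes through TCF and LEF factors. Secreted Frizzled-related proteins and Frzb bind the ligands outside the cell, Dkk1 occupies the LRP co-receptors, and Axin2 and Lef1 are both part of the response and among its best-known targets. Wnt activity acts early on the choice between mesoderm and neural fates and later on the patterning and growth of the neural tube.

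Reads kept per library ranged from 120326 at D2 replicate 1 to 613756 at D0 replicate 2, and D2 was the shallowest day. A direct RNA read is 1 molecule sequenced from its 3′ end, so levels are given in CPM (counts per 1000000 reads after scaling between libraries) and were not divided by transcript length, and 1 read was worth between 1.84 and 8.21 CPM. The summed level of 8 markers of pluripotent cells was 2019 to 2253 CPM at D0 and 178.5 to 220.7 at D6, although Fgf4 and Zfp42 had no read at D0. In each D0 library Pou5f1 made up most of this sum, at 1721 ± 149 CPM (SD, n = 3) against 0.92 ± 1.59 at D6. Nearly all of the D6 sum was Sox2, which neural progenitors also express, at 265.9 ± 17.8 CPM at D0 and 198.2 ± 22.5 at D6, and the other markers of the list but Pou5f1 had no read at D6. The summed level of 7 markers of neural progenitors was 199.4 to 250.2 CPM at D0, 632.3 to 782.2 at D2, 946.2 to 982.2 at D4 and 1128 to 1269 at D6. The summed level of 8 neuronal markers was 549 to 579.1 CPM at D0, 344.9 to 559.9 at D2, 1438 to 1667 at D4 and 2748 to 2828 at D6. Most of the D0 sum was Stmn2 and Tubb3, at 322.8 ± 16.9 and 141.8 ± 4.23 CPM (SD, n = 3). Markers of primitive streak and mesoderm, of endoderm and of muscle stayed at or below 12.2 CPM at D0 and D6. The 4 markers of neural crest summed to 20.2 to 31.6 CPM at D0 and 14.7 to 33.0 at D6, nearly all from Foxd3, with Sox10 and Tfap2b at 0. The 5 markers of glia summed to 21.2 to 41.3 and 30.2 to 39.6 CPM, mostly from Mbp, with Aqp4 at 0 and 1 read of Gfap, at D6. Since these are bulk RNA samples, fewer cells of a type and less RNA per cell cannot be told apart.

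Among the antagonists, Sfrp1 fell and Sfrp2 rose by D2, and both remained changed at D4 and D6. At D0 the reads of Sfrp1, which encodes a secreted protein that binds Wnt ligands and Frizzled receptors, numbered 60, 89 and 78 in the 3 replicates, or 145.8, 163.8 and 165.5 CPM. At D2 the Sfrp1 levels were 90.3, 74.1 and 57.6 CPM, at D4 33.6, 50.1 and 55.9, then at D6 90.1, 56.8 and 35.7. Each D0 library lay above each later library. The mean level of Sfrp1 went from 158.3 ± 10.9 CPM (SD, n = 3) at D0 to 74.0 ± 16.4, 46.6 ± 11.5 and 60.8 ± 27.4 on the 3 later days. In the limma-voom fit across 9309 genes, the log2 fold change of Sfrp1 against D0 was -1.12 ± 0.26 (SE; Benjamini-Hochberg adjusted p = 0.00173) at D2, -1.70 ± 0.24 (adjusted p = 9.87e-08) at D4 and -1.51 ± 0.22 (adjusted p = 1.27e-07) at D6. From D4 to D6 the Sfrp1 libraries overlapped and the log2 change was 0.19 ± 0.29 (limma-voom adjusted p = 0.764). In the runs dated December, the only month with runs of both D0 and D6 and a comparison added after the reads had been seen, the log2 change at D6 was -1.43 ± 0.30 for Sfrp1 (SE, limma-voom adjusted p = 0.000208) and 1.52 ± 0.23 for Sfrp2, described next (adjusted p = 9.53e-07).

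Sfrp2 encodes a second secreted Frizzled-related protein, which neural progenitors are known to express. Its level was 55.9, 49.7 and 61.5 CPM at D0, 427, 341.7 and 324.5 at D2, 424.7, 312.7 and 286.3 at D4, with 162.1, 176.5 and 120.8 at D6. The lowest later library, at 120.8 CPM, lay above the highest D0 library, and each D6 library lay below each D4 library. The means were 55.7 ± 5.91 CPM (SD, n = 3) in undifferentiated cells and 364.4 ± 54.9, 341.3 ± 73.5 and 153.2 ± 28.9 on the 3 later days. The log2 fold change of Sfrp2 against D0 was 2.67 ± 0.22 (SE; limma-voom adjusted p = 9.22e-16) at D2, 2.55 ± 0.20 (adjusted p = 2.81e-16) at D4 and 1.45 ± 0.22 (adjusted p = 1.79e-07) at D6. Mean levels of the 7 neural progenitor markers, in order of day, were 3.45, 54.5, 154.2 and 553.8 CPM for Fabp7, 1.23, 155.1, 318.1 and 278.2 for Hes5 and 148.9, 196.1, 245.9 and 201.1 for Sox3. They were 10.9, 85.6, 45.8 and 29.2 CPM for Sox1, 30.9, 121.1, 106.7 and 82.7 for Pax6 and 26.0, 101.6, 89.7 and 60.6 for Nes, and at most 5.56 for Pax3. Between D4 and D6 Fabp7 rose (log2 change 1.87 ± 0.15, limma-voom adjusted p = 1.23e-15), and the log2 changes of Hes5, Sox3, Sox1, Pax6 and Nes, from -0.64 to -0.20, did not pass the test. The part of these cells in the Sfrp2 levels was not tested. D4 and D2 libraries of Sfrp2 overlapped (log2 change -0.12 ± 0.16, limma-voom adjusted p = 0.780). Between D4 and D6 Sfrp2 fell by 1.10 ± 0.16 on the log2 scale, a 2.14-fold decrease (limma-voom adjusted p = 1.10e-06).

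The 2 antagonists exchanged places as the more abundant Sfrp transcript. Sfrp1 held 72.3%, 76.7% and 72.9% of the reads of Sfrp1 and Sfrp2 together at D0, 17.5%, 17.8% and 15.1% at D2, 7.34%, 13.8% and 16.3% at D4, but 35.7%, 24.3% and 22.8% at D6. All D0 libraries had more Sfrp1 than Sfrp2 reads and all later libraries had fewer. The mean share was 74.0% ± 2.40 (SD, n = 3) in undifferentiated cells and 16.8% ± 1.50, 12.5% ± 4.64 and 27.6% ± 7.06 on the 3 later days. The D0 libraries did not overlap with those of any later day, and a two-sided exact permutation test gave p = 0.1 for each comparison with D0, the smallest p that 3 against 3 libraries allow (Benjamini-Hochberg adjusted p = 0.143 over 10 tests of this share and of the summed level below). By run, each D0 run lay above each later run. Sfrp1 took 69.3% to 80.3% of the reads of this pair in the 3 runs of D0, 15.4% to 17.5% in those of D2 and 10.4% to 19.6% in those of D4. In 2 of the 4 runs of D6 the pair had 100 reads or more and the share was 25.8% and 27.0%. The other 2 runs of D6 had 10 and 8 such reads, with exact 95% binomial intervals of 6.67% to 65.2% and 15.7% to 84.3%, which cover counting error only.

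Frzb, which encodes another secreted Wnt-binding protein, was low. Its reads numbered 8, 7 and 2 at D0, 0, 0 and 1 at D2, 0, 2 and 1 at D4, whereas D6 had 5, 3 and 3. Fewer reads were seen at D2 and D4 than at D0 and D6, but the libraries of D2 and D4 overlapped with those of D0. Relative to D0 the ratio of Frzb levels, pooled over libraries, was 0.151 at D2 (exact 95% interval 0.00361 to 0.964) and 0.232 at D4 (0.0435 to 0.801), intervals that cover counting error only. The fitted log2 change at D4 was -1.64 ± 0.71 (SE, limma-voom adjusted p = 0.0816). Without D0 replicate 3, which had 2 of the 17 D0 reads, it was -2.16 ± 0.72 (limma-voom adjusted p = 0.0215). At D6 the log2 change against D0 was -0.12 ± 0.55, a fold with a 95% interval of 0.434 to 1.95, and -0.64 ± 0.54 without D0 replicate 3.

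The summed level of Sfrp1, Sfrp2 and Frzb was 221.1, 226.4 and 231.2 CPM at D0. It was 517.4, 415.8 and 387.3 at D2, 458.4, 367.7 and 344.5 at D4, but 270.2, 239.6 and 164.7 at D6. The D2 and D4 libraries were all above those of D0 (two-sided exact permutation p = 0.1, the smallest allowed, adjusted p = 0.143). The D6 libraries lay on both sides of D0, with a mean difference of -1.40 CPM (exact permutation p = 1.00).

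Dkk1, the antagonist that acts on the LRP co-receptors, had 4 reads in all, 2 in D0 replicate 2 and 2 in D0 replicate 3. No Dkk1 read was seen in the other 10 libraries, which allows a level of up to 5.40 CPM at D2, 2.76 at D4 and 2.68 at D6, where the limit is 3 reads over the 3 libraries of a day. The Dkk1 mean over the D0 replicates was 2.64 ± 2.30 CPM (SD, n = 3). With 4 reads against limits of this size, a difference between days was not detectable at this depth. The 4 Dkk1 reads all ended 970 nt before the annotated transcript end, 352 nt after the stop codon.

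The receptors showed smaller differences. Fzd2, a Frizzled receptor, had 97.2, 101.2 and 101.8 CPM at D0, 197.1, 148.2 and 109.9 at D2, 147.2, 93.1 and 128 at D4, then 108.1, 100.9 and 134.5 at D6. The 3 D2 libraries lay above the 3 D0 libraries, whereas D4 and D6 overlapped with D0. The log2 fold change of Fzd2 was 0.52 ± 0.22 at D2 (95% interval of the fold 1.07 to 1.94, limma-voom adjusted p = 0.119), 0.23 ± 0.20 at D4 (adjusted p = 0.424) and 0.17 ± 0.20 at D6 (adjusted p = 0.520). The adjusted p at D2 was 0.0386 without D2 replicate 3 and 0.0266 when library totals replaced the scaling factors. Fzd7, a Frizzled receptor of embryonic stem cells, had 19.4, 36.8 and 23.3 CPM at D0, 24.6, 32.9 and 20.9 at D2, 12.6, 23.9 and 37.2 at D4, then 39.6, 35.7 and 33.0 at D6. Its libraries overlapped between D0 and each later day, and the fold at D6 against D0 had a 95% interval of 0.863 to 2.12 (limma-voom adjusted p = 0.314).

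Axin2, a scaffold of the β-catenin destruction complex that is also a feedback target, had between 1 and 9 reads per library. Its mean level was 7.71 ± 0.67 CPM (SD, n = 3) in undifferentiated cells and 13.1 ± 6.59, 15.4 ± 6.38 and 8.87 ± 1.93 on the 3 later days, and the libraries of every later day overlapped with those of D0. The largest fitted log2 change was 0.98 ± 0.51 at D4 (limma-voom adjusted p = 0.163, 95% interval of the fold 0.979 to 3.96). Of 47 Axin2 reads, 26 were placed on the coding transcript and 21 on a shorter processed transcript that shares its 3′ part, and 1 read had a mapping quality of 10 or more, so the split between these transcripts is uncertain.

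Lef1, a nuclear partner of β-catenin, had 3 reads, all in D0 replicate 1, each placed on a different Lef1 transcript with a mapping quality of 0. Its absence from the other libraries allows up to 5.40 CPM at D2, 2.76 at D4 and 2.68 at D6. Of the ligands, Wnt8a had 1 read, in D0 replicate 3. Wnt3a, which maintains mesodermal progenitors in the embryo, had none, which allows up to 2.10 CPM at D0. For Lef1, Wnt8a and Wnt3a no difference between days was detectable at this depth.

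**Figure D1:**
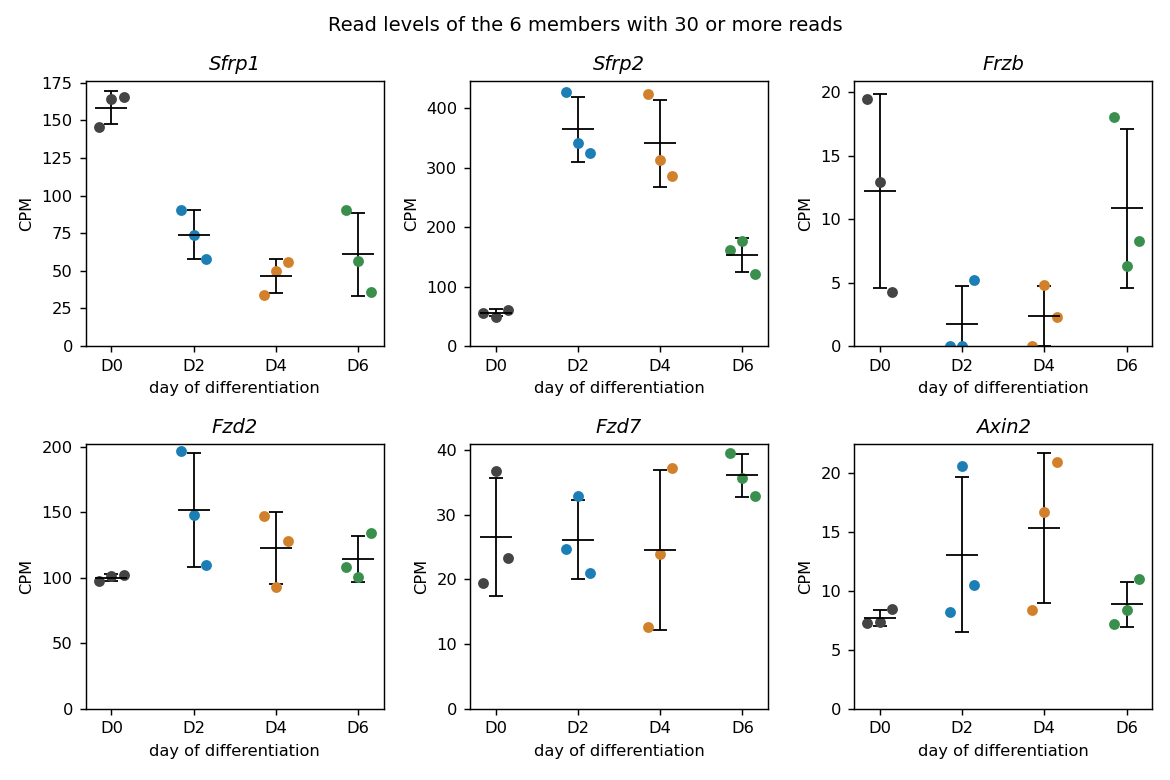
Level of each of the 6 members with at least 30 reads over all libraries, in CPM (y axis, each panel with its own scale), by day (x axis); points are libraries, and the horizontal line and bar are the mean and SD of 3. Sfrp1 is highest at D0 and Sfrp2 at D2 and D4, while Fzd2, Fzd7 and Axin2 overlap between most days and Frzb has libraries at 0 at D2 and D4.

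Of the 10 members, 6 passed the filter of 30 reads over the 12 libraries and were tested. At D2 against D0, 2 of the 6 were called, Sfrp1 lower and Sfrp2 higher, where 10.8% of the 9309 genes tested were called in either direction, 6.16% lower and 4.69% higher. At D4 the same 2 members were called, where 25.4% of genes were (12.9% higher and 12.5% lower), and at D6 again these 2, where 37.7% were (19% higher and 18.7% lower). At D6 the members' share, 33.3%, was thus near the share of all genes, and the count there says nothing about the members. Between D2 and D4 none of the 6 was called by limma-voom or by limma-trend. In limma-voom none had an unadjusted p under 0.05, where 15.9% of genes did, and in limma-trend 1 did (Sfrp1, unadjusted p = 0.0211, adjusted p = 0.172), where 19% did. By limma-voom adjusted p, 3.1% of genes were called (2.03% higher and 1.07% lower). Between D4 and D6 only Sfrp2 was called, where 8.46% of genes were (4.13% higher and 4.34% lower). The split of called genes depended on the scaling. Higher genes made up 43.3%, 50.6% and 50.5% of those called against D0 at D2, D4 and D6, 65.4% at D4 against D2 and 48.7% at D6 against D4, and 65.5%, 62.4%, 69.3%, 55.2% and 69.6% with library totals. With limma-trend the last was 29.5%. Sets of libraries that did not overlap were seen for 3 of the 6 members at D2 against D0 (Sfrp1, Sfrp2 and Fzd2), beside 28.3% of all genes, for 2 at D4 (37.8%) and for 2 at D6 (46.7%). Between D2 and D4 this held for 1 of the 6, Sfrp1, beside 20.7% of all genes, and between D4 and D6 for 2, Sfrp2 and Frzb, beside 24.7%.

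**Figure D2:**
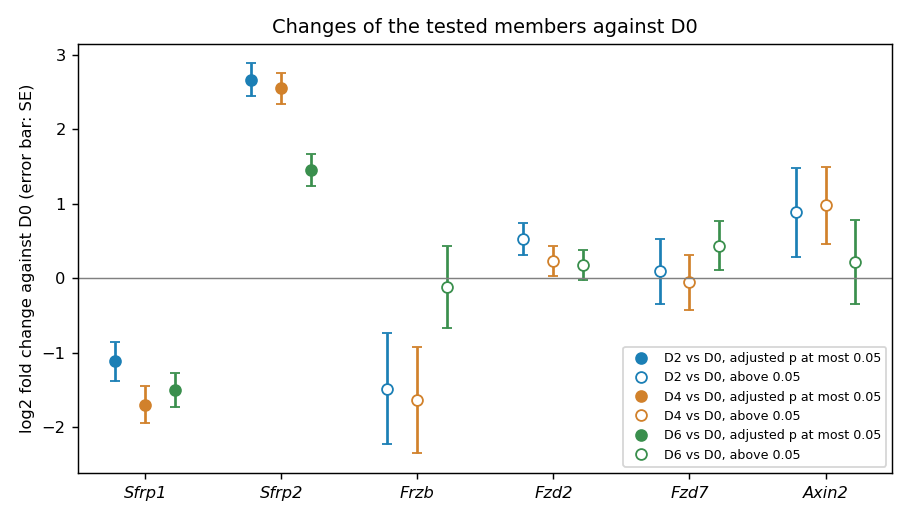
Log2 fold change of the 6 tested members against D0 (y axis, limma-voom, bar: SE) at D2, D4 and D6; filled points have an adjusted p of at most 0.05. Sfrp1 lies below 0 and Sfrp2 above 0 at each day, from -1.70 to -1.12 and from 1.45 to 2.67, and the other 4 members have open points.

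The order of the levels differed between days. At D0 it was Sfrp1, Fzd2, Sfrp2, Fzd7, Frzb, Axin2 by mean CPM, and the libraries of neighbours did not overlap for Sfrp1 and Fzd2 or for Fzd2 and Sfrp2, nor for Sfrp2 and Fzd7, but did for Frzb and Axin2 and for Fzd7 and Frzb, whose edges met at 19.4. At D2 the order was Sfrp2, Fzd2, Sfrp1, Fzd7, Axin2, Frzb, with no overlap between the libraries of neighbours. At D4 it was the same as at D2, but the libraries of Fzd7 overlapped with those of Sfrp1 and of Axin2. At D6 it was Sfrp2, Fzd2, Sfrp1, Fzd7, Frzb, Axin2, with the libraries of Sfrp2 and Fzd2, of Sfrp1 and Fzd7 and of Frzb and Axin2 overlapping.

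The genes whose log2 level was most like that of a member over the 12 libraries were named by Pearson's r among the other 9308 genes tested, as a description, since the libraries share days and scaling. For Sfrp1 these were Sfxn1, Cald1 and Ppa1, with r of 0.94, 0.94 and 0.93. For Sfrp2 they were Mdk, which encodes the growth factor midkine, Irx3, a homeodomain factor of the neural tube, and Crabp2, which binds retinoic acid in the cell, with r of 0.97, 0.96 and 0.95. For Fzd2 they were Tor3a, Bfar and Pdzrn3 (0.90, 0.87 and 0.85), for Fzd7 Pheta1, Ermard and Cacna1h (0.89, 0.82 and 0.82), for Axin2 Ski, Golph3l and Bcas2 (0.85, 0.82 and 0.81) and for Frzb Vstm2b, Tmem17 and Slc25a33 (0.85, 0.84 and 0.83). In the last 4 lists most values rest on few reads per library.

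The reads also showed where each transcript ended, because a direct RNA read starts at the poly(A) tail. Read ends at most 25 nt apart were joined into sites, and a site was kept with at least 5 reads and 3% of the reads of its transcript. Sfrp1 had 2 sites, Sfrp2 had 3, Fzd2 had 4, Frzb had 2 and Fzd7 had 1. Each first site lay in the 3′ untranslated region, downstream of the stop codon. The windows below show the 30 bases at the first and last sites of the 3 members that end in several places with many reads, and at the 1 site of Fzd7, from GENCODE M21 transcripts on GRCm38, on the strand of the transcript. Capitals mark AATAAA, the canonical signal for cleavage and polyadenylation, where it was found in the last 50 bases before the most frequent end.
Sfrp1 first site, chr8:23446582-23446611, plus strand: acccattacagttgtggcttttgcattgca
Sfrp1 last site, chr8:23449603-23449632, plus strand: ttcacttcactaaaatcactcgatcaataa
Sfrp2 first site, chr3:83773674-83773703, plus strand: aactAATAAAatcatgactatttttatgaa
Sfrp2 last site, chr3:83774285-83774314, plus strand: gtatataaactttacatcttgttgtaccta
Fzd2 first site, chr11:102606549-102606578, plus strand: ttatttttttaAATAAAgaacggtaaaaaa
Fzd2 last site, chr11:102608029-102608058, plus strand: atcatAATAAAgtgcatttaattatcttca
Fzd7 only site, chr1:59486926-59486955, plus strand: acagatcacgAATAAAttttttaaaaaata
The signal lay 26 nt before the end at the first Sfrp2 site, 19 and 25 nt before it at the first and last Fzd2 sites, and 20 nt before it at Fzd7. Neither AATAAA nor ATTAAA was found in the 50 bases before the ends of either Sfrp1 site or of the last Sfrp2 site, which says only that these letters are not in those windows. Reads were aligned to annotated transcripts, so an end beyond the annotated one could not be seen.

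For Sfrp1 the last site, at the annotated end of the 4372-nt transcript ENSMUST00000033952.7 (chr8:23411502-23449632), held 326 of 385 reads (84.7%). The first site, 3021 nt before that end and 123 nt after the stop codon, held 52 reads (13.5%). For Sfrp2, the last site held 583 of 804 reads (72.5%) of the 2003-nt transcript ENSMUST00000029625.7 (chr3:83766321-83774316), and the first, 613 nt before the annotated end, held 187 (23.3%). A middle site of Sfrp2, 210 nt before the end, held 34 reads (4.23%). Sfrp2 reads were often nearly complete, since 42.2% began within 100 nt of the annotated start of the transcript, compared with 8.05% for Sfrp1.

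Fzd2 was the member of these 4 that ended mostly upstream. Of 480 reads on the 3663-nt transcript ENSMUST00000057893.6 (chr11:102604396-102608058), the first site, 1480 nt before the annotated end and 134 nt after the stop codon, held 276 (57.5%), and the annotated end held 141 (29.4%). The 30 bases shown for this first site end in a run of A, 7 of the next 20 bases are A, and AATAAA lies 19 nt before the end. Reads primed within such a stretch were not separated from reads that start at a tail, and their part in the 57.5% was not tested. The other 2 sites of Fzd2, 1385 and 231 nt before the end, held 28 and 24 reads. Fzd7, whose 4532-nt transcript ENSMUST00000114246.3 lies at chr1:59482424-59486955, ended at its annotated end in 122 of 123 reads. Frzb (ENSMUST00000028389.3, chr2:80411970-80447625, minus strand) ended 203 nt before its annotated end in 21 of 32 reads and at that end in 6.

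**Figure D3:**
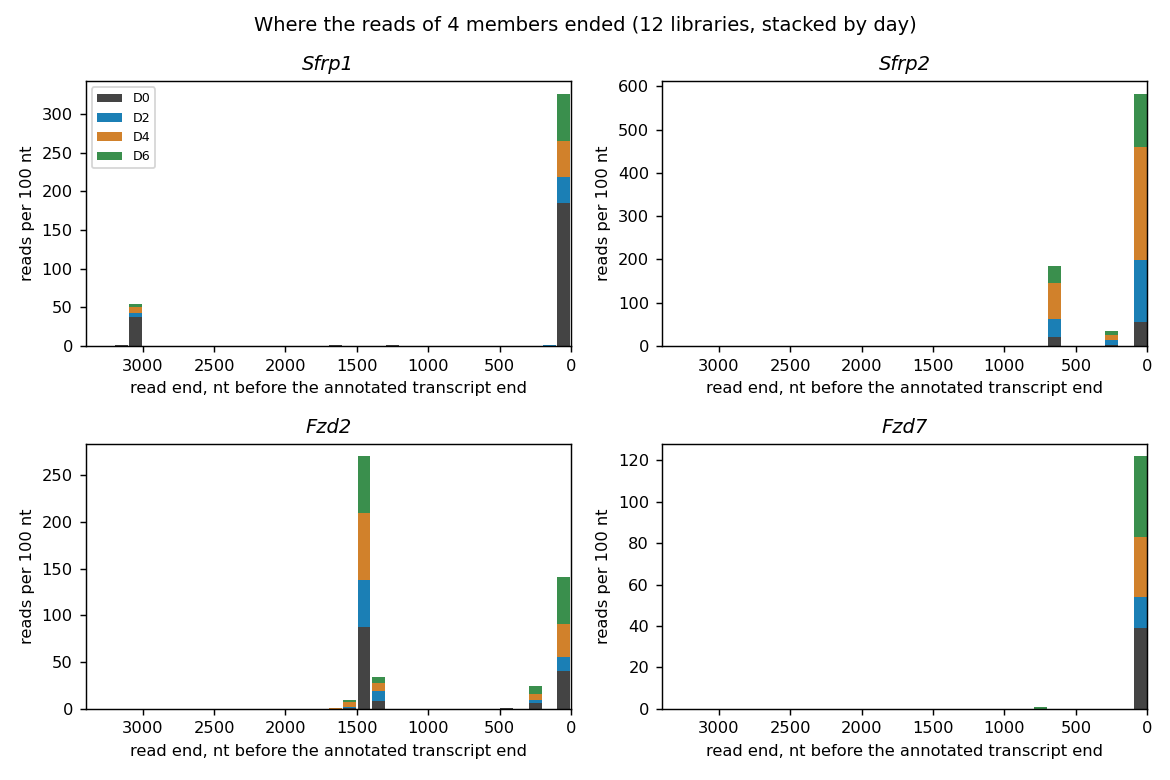
Reads (y axis, per 100 nt) by the distance of the read end from the annotated transcript end (x axis, in nt, with the annotated end at the right), stacked by day over 12 libraries, for Sfrp1, Sfrp2, Fzd2 and Fzd7. Fzd2 has its main peak about 1480 nt before the annotated end, Sfrp1 and Sfrp2 have smaller upstream peaks 3021 and 613 nt before it, and Fzd7 has 122 of 123 reads at the end.

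The share of reads ending more than 100 nt before the annotated end was compared between days, a comparison chosen after the reads had been seen. For Sfrp1 the share was 18.8% ± 2.59 (SD, n = 3) in undifferentiated cells and 12.3% ± 14.2, 10.7% ± 12.1 and 5.14% ± 4.46 on the 3 later days. These shares rest on 42 of 227 Sfrp1 reads at D0, and on 6 of 40, 7 of 53 and 4 of 65 later. In the weighted limma fit the difference at D6 was -12.3 percentage points (SE 2.52), with an unadjusted p of 0.00326 and an adjusted p of 0.151 over 3938 genes. This did not pass the threshold, and no gene of the 3938 did, while 10.6% of them had an unadjusted p of at most 0.05. For Sfrp2 the share was between 26.2% and 30.01% on average at each day, with a difference at D6 against D0 of -0.79 points and a 95% interval of -12.9 to 11.3. For Fzd2 it was 70.8% ± 13.7 at D0 and 60.4% ± 14.8 at D6, a difference of -11.4 points with a 95% interval of -31 to 8.24 (limma adjusted p = 0.826), and of -20.8 points without D6 replicate 3 and -2.41 without D6 replicate 2. Both intervals use a normal multiple of the SE and are narrower than the limma test would give. At D2 and at D4, 3 members had enough reads for this test, none was called, and none had an unadjusted p under 0.05, where 6.99% and 8.68% of genes did.

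Poly(A) tail lengths of the members did not change detectably with the day. The tails were summarised by the share of reads with tails of 30 to 90 nt and by the median. Median tails of Sfrp1 per library ran from 94.1 nt at D2 replicate 2 to 133.7 nt at D2 replicate 1, and those of Sfrp2 from 102.9 nt at D6 replicate 1 to 131.7 nt at D0 replicate 3. Against D0 the median of Sfrp1 differed by -4.68 nt at D2 (95% interval -30 to 20.6), 3.52 nt at D4 (-19.8 to 26.8) and 7.85 nt at D6 (-13.9 to 29.6). That of Sfrp2 differed by -3.68 nt at D2 (-23.1 to 15.7), -3.21 nt at D4 (-21.7 to 15.3) and -4.80 nt at D6 (-26.5 to 16.9). Fzd7 had median tails of 88.3, 109.9 and 93.5 nt at D0 and 150.6, 132.1 and 148.3 nt at D6, from 8 to 20 reads per library, and these libraries did not overlap, as was so for 18.2% of the 5694 genes tested. The fitted difference of the Fzd7 median at D6 was 41.2 nt (95% interval 6.89 to 75.6, limma unadjusted p = 0.0244, adjusted p = 0.249), and that of its share of tails of 30 to 90 nt was -21.1 points (adjusted p = 0.445). None of the 3 members with enough reads at D2, or of the 4 at D4 and D6, was called in the share, where limma called 2.25%, 2.42% and 2.72% of genes, nor in the median, where it called 2.01%, 2.24% and 3.76%. Fzd7 at D6 was the only one with an unadjusted p under 0.05, in both measures, and the unweighted fit called none as well. That threshold was passed by 8.08%, 8.89% and 11.2% of all genes in the share and by 8.4%, 9.34% and 14.1% in the median on the 3 later days.

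Within libraries, however, tail length differed between the sites of a gene, a pattern also chosen after the reads had been seen. For Sfrp2 the median tail was longer at the last site than at the first in 12 of 12 libraries. First-site medians were between 71.6 and 127.2 nt and last-site medians between 117.7 and 140.2 nt, with a mean difference of 29.1 ± 18.2 nt (SD, n = 12 libraries, two-sided exact permutation p = 0.000488 by exchanging sites within libraries, the smallest this design allows, adjusted p = 0.00146 over 3 genes). The Sfrp2 difference was 7.59, 21.3 and 8.71 nt in the D0 libraries, 23.4, 51.8 and 54.7 nt at D2, 48.0, 24.4 and 54.3 nt at D4, with 26.0, 19.1 and 9.80 nt at D6. The means by day were 12.5 ± 7.60, 43.3 ± 17.3, 42.2 ± 15.8 and 18.3 ± 8.11 nt (SD, n = 3), and a difference between days was not tested. For Sfrp1 it was longer at the last site in 5 of the 5 libraries with at least 5 reads at each site, by 30.9 ± 7.95 nt (SD, n = 5). The exact permutation p of 0.0625 is the smallest that 5 libraries allow. They were 3 libraries of D0, 1 of D2 and 1 of D4, so D6 was not covered. For Fzd2 the median tail was longer at the last site in 7 of 9 libraries, by 14.7 ± 16.1 nt (SD, n = 9, exact permutation p = 0.0312, adjusted p = 0.0468), but this call rested on single libraries. The exact permutation p was 0.0625 without any 1 of D0 replicate 2, D2 replicate 2, D4 replicate 2 and D6 replicate 1, 0.0547 without D4 replicate 3 or D6 replicate 2, and 0.23 when means replaced medians. The 2 Fzd2 libraries with shorter tails at the last site were D0 replicates 1 and 3. The median mapping quality was 60 at the first and the last site of each of these 3 genes. Read length was not compared between sites, and its part in the tail estimates was not tested.

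**Figure D4:**
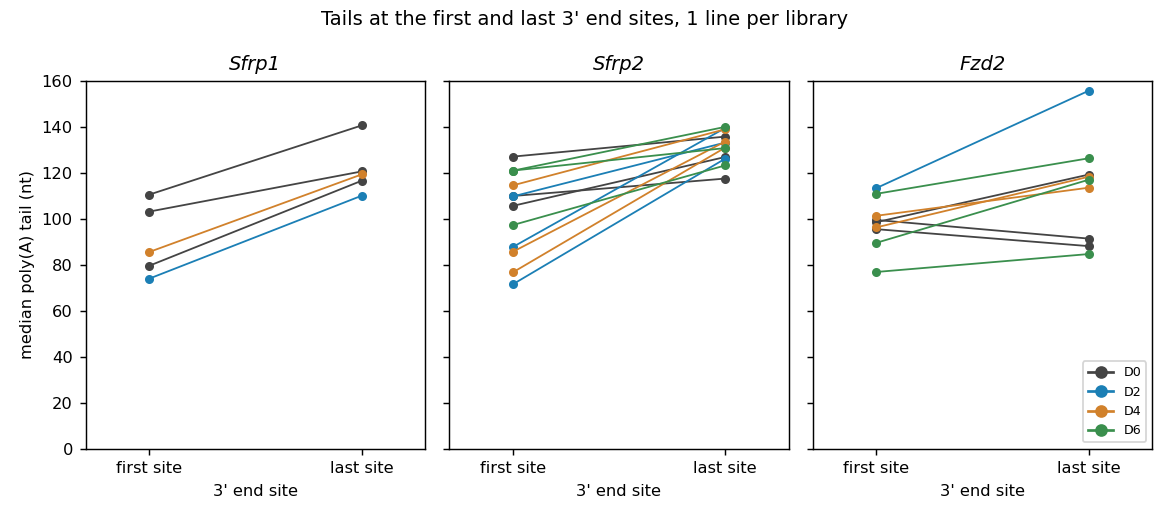
Median poly(A) tail in nt (y axis, starting at 0) of reads at the first and at the last 3′ end site of Sfrp1, Sfrp2 and Fzd2 (x axis), 1 line per library with at least 5 reads at each site, coloured by day. The line rises in 5 of 5 libraries for Sfrp1, 12 of 12 for Sfrp2 and 7 of 9 for Fzd2.

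The rest of the pathway was described from lists of its parts at D6 against D0. Among 19 Wnt ligands, 13 had reads and 4 could be tested, of which 2 were higher and 1 lower, with a median log2 change of 1.09 over the 4 beside 0.00 over all genes tested. Wnt7b and Wnt5a, with 66 and 41 reads in all, passed the filter of 30 reads only through D6. The filter thus favoured a rise at D6, and nothing is read from this median or from their tests. Each count below stands beside the 37.7% of all genes tested that were called at D6, 19% higher and 18.7% lower, and nothing is read from it about the list. Wnt7b, a ligand of the developing forebrain and spinal cord, had no read at D0 or D2, 4 at D4 and 62 at D6, a level at least 26.4-fold higher at D6 than the D0 limit of 3 reads over the day. Wnt5a, which mostly signals without β-catenin, was at 3.54 ± 2.46 CPM (SD, n = 3) at D0 and 19.3 ± 5.16 at D6 (limma-voom adjusted p = 0.00139), and Wnt5b was at 19.6 ± 4.12 and 3.80 ± 3.62 (adjusted p = 0.00283). All these ligands were lower than Sfrp2 on the scale of CPM.

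Among the 16 receptors, which include Fzd2 and Fzd7, 12 could be tested, 2 were higher and 1 lower, beside 37.7% of all genes called, with a median log2 change of 0.19. The receptor Fzd3, which acts in axon guidance and planar polarity, went from 26.2 ± 5.86 to 58.1 ± 5.81 CPM (SD, n = 3, limma-voom adjusted p = 0.00330), and Fzd8 from 7.62 ± 1.45 to 25.9 ± 6.82 (adjusted p = 0.00399). Fzd5 had 49 reads at D0 and 3 at D6, a pooled ratio of 0.0781 (exact 95% interval 0.0156 to 0.242, counting error only; limma-voom adjusted p = 3.72e-05). Fzd2 and Fzd7 were thus not among the 3 receptors called. Of these 3, Fzd5, with 60 reads in all, passed the read filter only through D0, and Fzd8, with 58, only through D6. The filter favoured a fall of Fzd5 and a rise of Fzd8, so their tests are descriptions.

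Among 16 secreted antagonists, 4 could be tested. Besides Sfrp1, Sfrp2 and Frzb this was Draxin, a secreted Wnt antagonist and axon guidance cue, with 1 read in undifferentiated cells and 5, 43 and 54 on the later days. The pooled ratio of Draxin at D6 was 68.9 (exact 95% interval 11.8 to 2772, counting error only), and the limma-voom log2 change was 4.99 ± 0.66 (SE, adjusted p = 6.03e-09). The 4 had a median log2 change of 0.66, with 2 higher and 1 lower, beside 19% and 18.7% of all genes. In the arm that releases ligands or tunes receptors through R-spondins, 3 of 11 genes could be tested and 2 were higher, beside 19% of all genes. Porcn, which attaches the lipid to Wnt ligands, had 1 read at D0 and 28 at D6 (pooled ratio 35.7, exact 95% interval 5.91 to 1461, counting error only). The limma-voom log2 change of Porcn was 3.80 ± 0.76 (SE, adjusted p = 4.55e-05). Lgr4, an R-spondin receptor, went from 58.9 ± 13.3 to 115.3 ± 19.5 CPM (SD, n = 3, limma-voom adjusted p = 0.000434).

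All 14 cytoplasmic genes were tested, Axin2 among them, and 3 were higher and 1 lower, beside 37.7% of all genes called, with a median log2 change of 0.18. The kinase gene Csnk1e went from 49.5 ± 2.94 to 129.6 ± 6.31 CPM (SD, n = 3, limma-voom adjusted p = 3.62e-07), Dvl1, which relays the Frizzled signal, from 13.2 ± 4.21 to 35.4 ± 12.6 (adjusted p = 0.00345), and Csnk1a1 from 164.4 ± 21.8 to 121.3 ± 16.8 (adjusted p = 0.0356). The call of Csnk1a1 was lost with median-of-ratios scaling (limma-voom adjusted p = 0.0545) and with library totals (0.418), under which Gsk3b and Dvl3, and the receptor gene Fzd1, named after their values were seen, were called higher as well. Fzd1, with 47 reads in all, passed the read filter only through D6, so its test is a description. Of 13 nuclear factors 10 were tested, and 2 were higher and 2 lower, near the 37.7% of all genes called, with a median of -0.07. The TCF genes Tcf7 and Tcf7l1 were lower, from 55.8 ± 4.63 to 5.55 ± 4.81 CPM for Tcf7 (SD, n = 3, limma-voom adjusted p = 5.52e-06) and from 63.4 ± 14.6 to 13.4 ± 2.07 for Tcf7l1, a repressor of pluripotency genes (adjusted p = 1.40e-05). Pygo1, a cofactor of β-catenin, and the corepressor gene Tle1 were higher. Tle1 went from 40.6 ± 6.71 to 69.4 ± 13.1 CPM (SD, n = 3, limma-voom adjusted p = 0.0174). Pygo1 had 2 reads at D0 and 30 at D6 (pooled ratio 19.1, exact 95% interval 4.86 to 165, counting error only), with a limma-voom log2 change of 3.63 ± 0.69 (SE, adjusted p = 1.67e-05). With 56 reads in all, Pygo1 passed the filter of 30 reads only through D6, so its test is a description.

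Among 20 listed target genes, which include Axin2, Lef1 and Dkk1, 6 could be tested, and 2 were higher and 2 lower, beside 19% and 18.7% of all genes, with a median log2 change of 0.40. Sp8, a zinc-finger factor, and Ccnd1, which encodes cyclin D1, were higher, from 3.36 ± 1.88 to 35.3 ± 7.93 CPM (SD, n = 3, limma-voom adjusted p = 6.94e-06) and from 15.7 ± 7.13 to 62.9 ± 19.6 (adjusted p = 1.16e-05). Tcf7 and Tnfrsf19 were lower, Tnfrsf19 with 53 reads in undifferentiated cells and 6, 0 and 5 on the later days (limma-voom adjusted p = 8.61e-05 at D6). Tnfrsf19, with 64 reads in all, passed the read filter only through D0, so its test is a description. Axin2, at a log2 change of 0.22 ± 0.56 at D6, was not called (limma-voom adjusted p = 0.799).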

How the data were processed

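P19 RNA was sequenced with a nanopore direct RNA kit, and the authors aligned reads with minimap2 (2.20 in the submitters' notes, mm10) and estimated poly(A) tails in nt. The deposited table has 1 line per read, with the authors' mapping quality score and a barcode confidence as a fraction. A second deposited table holds the authors' own log2 fold changes and p-values and was not used. Lines tagged PASS and classed as mRNA were tallied by gene, and 313187 mitochondrial and 38189 pseudogene lines were set aside. Genes with at least 30 reads were tested with limma-voom (limma 3.58.1, R 4.3.3; pseudocount 0.5) after trimmed-mean scaling, on day, in 1 fit of 12 libraries; tails used limma weighted by reads, for genes with a mean of 10 reads per library. Calls used a Benjamini-Hochberg adjusted p of 0.05. Libraries are labelled as replicates of 1 line, so p-values measure the spread between them. Scripts were tested on simulated data. Named genes were the 10 members, up to 2 others per pathway list and direction with the smallest adjusted p at D6, the 3 most alike per member, and cell type markers for the check of the labels. Members and lists were chosen with earlier results of these data known. Deviations of same-numbered replicates correlated weakly, at -0.153 to 0.23, and were not taken to pair the libraries. Python 3 and scipy gave exact tests. Alternatives covered scaling, filters, read choice, depth, test, block and left-out libraries.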

Additional observations from a re-analysis of the deposited data

How the results depend on the processing

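The calls of Sfrp1 and Sfrp2 against D0 kept their direction and side of the threshold under every alternative run. The count of members called was 2 or 3 at D2 and at D4 against D0, where Fzd2 or Frzb was the third, and stayed as reported in the other comparisons of abundance and in tails and upstream ends. Over 21 alternatives, or 22 at D6 against D0, the log2 change of Sfrp1 was -1.22 to -0.94 at D2, with an adjusted p of up to 0.0420, -1.84 to -1.18 at D4 and -1.75 to -1.18 at D6. That of Sfrp2 was 2.58 to 3.16, 2.42 to 3.01 and 1.34 to 2.14, and for Sfrp2 at D6 against D4 -1.21 to -0.87. Fzd2 at D2 passed the threshold with library totals (adjusted p = 0.0266), limma-trend with a pseudocount of 2 (0.0321), the 2 days alone (0.0392) and without D2 replicate 3 (0.0386), and ranged up to 0.520. Frzb at D4 passed it with no filter (0.0439) and without D0 replicate 3 (0.0215), and ranged up to 0.227. With library totals the median log2 change of all genes was 0.13, 0.12 and 0.27 in the comparisons of D2, D4 and D6 with D0, against -0.04, 0.01 and 0.00 as reported. The genes called at D2, D4 and D6 against D0, at D4 against D2 and at D6 against D4 numbered 1010, 2364, 3510, 289 and 788, and 350, 685, 1224, 117 and 207 in thinned libraries. A mapping quality of at least 10 gave 570 at D2 and 2179 at D6 against D0, and 413 at D6 against D4. Limma-trend gave 455 at D4 against D2 and 431 at D6 against D4, with a higher pseudocount 1711 at D2 against D0 and 517 at D4 against D2, and no filter gave 1615 at D2 against D0.

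With the replicate number as a block, Sfrp1 had a log2 change of -1.10, -1.70 and -1.47 and Sfrp2 of 2.69, 2.58 and 1.47 at D2, D4 and D6, and the block changed no call of a member. The deviations of 18 same-numbered pairs correlated at -0.153 to 0.23 over 2222 genes, so the numbers were not taken to pair the libraries.

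The longer tails at the last Fzd2 site no longer passed an exact permutation test with at least 10 reads at each site (11.3 nt) or with mean tails (8.26 nt), and leaving out 1 library gave 11.3 to 17.6 nt, with 6 of the 9 libraries used each ending the call when left out.

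Values that were not called turned in sign as follows, and the causes were not tested. Under library totals the log2 changes were 0.038 for Fzd7 at D4 and 0.15 for Frzb at D6, both against D0, and 0.092 for Fzd2 at D6 against D4. Limma-trend with a pseudocount of 2 gave 0.030 for Frzb at D6 and -0.23 for Axin2 at D4 against D2. A mapping quality of at least 10 gave 0.080 for Fzd2 at D6 against D4 and -0.15 points for its upstream ends at D4. All quality tags gave 0.057 for Fzd7 at D4, 0.20 for Frzb at D6 and 0.31 for Frzb at D4 against D2. A barcode confidence of at least 0.9 gave -0.039 for Axin2 at D4 against D2 and -0.011 for Sfrp1 at D6 against D4. Thinning gave -0.024 for Fzd7 at D6 against D0 and -0.028 for Sfrp1 at D6 against D4. Tail limits of 35 and 85 nt gave -0.45 points for Sfrp2 at D2 and -3.91 for Sfrp1 at D4, and the unweighted fit gave 0.84 points for upstream ends of Sfrp2 at D6.

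Leaving out 1 library at a time gave these ranges of log2 change, from -0.041 to 0.42 for Fzd7 at D2 and -0.41 to 0.22 at D4 against D0. Against D2, at D4, they were -0.71 to 0.28 for Frzb, -0.18 to 0.37 for Axin2 and -0.54 to 0.048 for Fzd7, and at D6 against D4 -0.047 to 0.52 for Sfrp1 and -0.23 to 0.10 for Fzd2. The median tail against D0 ranged from -14.1 to 7.45 nt at D2 and -8.99 to 13.1 at D4 for Sfrp1, from -7.90 to 1.94 at D2, -7.19 to 0.50 at D4 and -10.7 to 2.10 at D6 for Sfrp2, and from -9.30 to 4.30 at D4 and -8.23 to 16.4 at D6 for Fzd2. The share of tails of 30 to 90 nt ranged from -4.04 to 4.97 points at D4 for Sfrp1, -7.16 to 4.18 at D6 for Sfrp2, and -3.78 to 7.54 at D4 and -4.08 to 17.1 at D6 for Fzd2. The share of upstream ends ranged from -14.0 to 2.19 points at D2 for Sfrp1, -6.08 to 4.84 at D2, -7.52 to 3.40 at D4 and -5.68 to 5.25 at D6 for Sfrp2, and -6.55 to 9.05 at D4 and -20.8 to -2.41 at D6 for Fzd2. Depth limits Frzb and Axin2, with at most 9 reads in a library, and leaves Dkk1, Lef1, Wnt3a and Wnt8a out of the reported fit. With no filter Dkk1, Lef1 and Wnt8a were fitted and not called, the lowest limma-voom adjusted p being 0.205, for Dkk1 at D6 against D0.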
